A study of Homo sapiens with 4 samples.

Results

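The retinoic acid receptors RARA, RARB and RARG, the retinoid X receptors RXRA, RXRB and RXRG and the cellular retinoic acid binding proteins CRABP1 and CRABP2 were described across 4 sorted populations of cardiac cultures made from human embryonic stem cells (hESCs). The 8 genes were taken as the rows of the count table whose Ensembl identifiers belong to these symbols, and all 8 were found among 60234 genes. The cells were of the NKX2.5:GFP line, an established hESC line in which the NKX2-5 locus drives GFP. Fluorescence marks cells of the cardiac lineage, and GFP-negative cells are whatever else a culture holds. Cultures were differentiated as spin embryoid bodies and received either retinoic acid (RA) at 1 µM or the solvent DMSO (control, CTR) from day 4 to day 7, and both kinds were sorted by GFP at day 31. This gave RA GFP-positive, CTR GFP-positive, RA GFP-negative and CTR GFP-negative cells, with 1 RNA library of each and thus no replicates. Library and condition cannot be told apart, nor can RA and the separate culture that received it, and no test between conditions was made. The levels are those of cells collected after RA had been withdrawn, not during exposure.

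RARs are nuclear receptors that bind DNA as dimers with an RXR. Without ligand the dimer recruits corepressors, and when all-trans RA binds the RAR, coactivators take their place and target genes are transcribed. RXRs also pair with thyroid hormone, vitamin D, PPAR and liver X receptors, while the small cytosolic CRABPs carry RA, CRABP2 to the receptors and CRABP1 largely to the enzymes that oxidise it. In the developing heart, RA made by the mesoderm patterns the posterior, atrial end of the heart tube.

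All positions are on GRCh37. RARA (ENSG00000131759) lies at chr17:38465432-38513895 on the plus strand, RARB (ENSG00000077092) at chr3:24729378-25639423 on the plus strand and RARG (ENSG00000172819) at chr12:53604351-53626764 on the minus strand. RXRA (ENSG00000186350) lies at chr9:137208944-137332431 on the plus strand, RXRB (ENSG00000204231) at chr6:33161365-33168442 on the minus strand and RXRG (ENSG00000143171) at chr1:165370159-165414592 on the minus strand. CRABP1 (ENSG00000166426) lies at chr15:78632695-78640567 on the plus strand and CRABP2 (ENSG00000143320) at chr1:156669398-156675608 on the minus strand. The authors counted reads without using strand. RARA shares 11.7% of its exon bases with the antisense gene RARA-AS1, RXRB shares 9.26% with SLC39A7 on the opposite strand, and RXRA shares 0.51% with MIR4669, so that reads lying wholly on those bases could not be assigned to either gene.

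The libraries held 28125727 reads (RA GFP-positive), 28643091 (CTR GFP-positive), 26222787 (RA GFP-negative) and 4371101 (CTR GFP-negative), so that the GFP-positive libraries were 6.43 and 6.55 times as deep as that of the CTR GFP-negative cells. Levels are given as CPM, the reads of a gene relative to a library size adjusted by TMM factors, with an exact Poisson 95% interval, and ratios of libraries carry a Clopper-Pearson 95% interval. These intervals cover counting error only, since amplified reads are not independent molecules and no library was repeated. Differences are given as log2(CPM + 1) of the first condition minus that of the second, which understates the change of genes with few reads, and a gene was counted as higher or lower when this difference reached 1 (2-fold) and either library held at least 10 CPM. The sort held in both treatments: all 8 cardiomyocyte markers were higher in the GFP-positive fraction, with a summed level of 15408 CPM (RA) and 18051 CPM (CTR) against 396.5 and 834.6 CPM. Of the other marker lists, fibroblast genes summed to 13395, 3592, 49235 and 25794 CPM in the order RA GFP-positive, CTR GFP-positive, RA GFP-negative and CTR GFP-negative. In the same order neural, neural crest and eye genes summed to 76.7, 41.3, 157.6 and 734.7 CPM, and gut and liver endoderm genes to 40.7, 12.7, 680.7 and 94.8 CPM. In such mixed populations, fewer cells of a type and less RNA per cell cannot be told apart.

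In the promoter windows searched, RARB was the member with a complete retinoic acid response element of the direct repeat type, and its element is shown for that reason. The 15 RefSeq promoters of the 8 genes (250 bases before to 50 after each transcript start, from a table on GRCh38.p14) were searched on both strands for a pair of hexamers in the same orientation, each being AGGTCA, its variant AGTTCA, the variant GGGTCA or the variant GGTTCA, with 5 (DR5), 2 (DR2) or 1 (DR1) bases between them. A DR5 was found in 1 promoter, that of the RARB transcript that starts at base 25469754 of chromosome 3, and no DR2 or DR1 was found in any of the 15. Sequence outside these windows, including other promoters and distant elements, was not searched. The element was read back from the GRCh37 genome at chr3:25469695-25469723 on the plus strand, upstream of that start and within the annotated span of the RARB gene. For comparison, the DR5 of CYP26A1, the enzyme that oxidises RA for removal, is given from chr10:94833554-94833582 on the minus strand, opposite to the gene and upstream of its start. Capitals mark the hexamers.
RARB: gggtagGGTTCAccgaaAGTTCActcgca
CYP26A1: acaattAGTTCAcccaaAGTTCAtcttta
Over all 35116 RefSeq promoters a DR5 of these letters stood in 31 (0.0883%), a DR2 in 14 (0.0399%) and a DR1 in 46 (0.131%). A match describes letters and is no measure of binding, and counts per gene do not tell which of the RARB transcripts was read. Of the 29 genes with a DR5, 18 were matched to the count table. In GFP-positive cells 7 of them passed the filter and 0 were higher or lower with RA, beside 4.14% and 1.67% of all genes, with a median of -0.13 against 0.02. In GFP-negative cells 6 passed, with RARB higher and CYB5R2 (seen among them afterwards) lower, beside 4.95% and 3.18% of all genes, and a median of -0.19 against 0.08.

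Across the 4 comparisons the receptors and binding proteins fell into a group that stayed within 2-fold throughout (RARA, RXRA and RXRB) and a group that varied by condition (RARB, RARG, RXRG, CRABP1 and CRABP2). Between RA and CTR GFP-positive cells, 2 of the 8 genes were higher with RA, CRABP1 and CRABP2, beside 4.14% of 11186 genes tested, and 0 were lower, beside 1.67%. Between RA and CTR GFP-negative cells, 7 of the 8 passed the filter on low values. Of these, 3 were higher with RA, RARB, RARG and CRABP2, beside 4.95% of 11606 genes, and 1 was lower, CRABP1, beside 3.18%. In CTR cells 2 were higher in the GFP-positive fraction, RARB and RXRG, beside 11.9% of 11806 genes, and 1 was lower, CRABP1, beside 13.3%. In RA cells RXRG alone was higher in the GFP-positive fraction, beside 9.97% of 11850 genes, and CRABP1 alone was lower, beside 12.4%. Where a gene reached 10 CPM only in its higher library, the filter itself needed a difference. This held for RARB in GFP-negative and CRABP1 in GFP-positive cells for RA, and between the fractions for RARB, RXRG and CRABP1 in CTR and RXRG in RA cells. For RA, the median difference of the 8 genes was 0.15 in the GFP-positive and 0.08 in the GFP-negative fraction, against 0.02 and 0.08 over all genes tested.

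**Figure D1:**
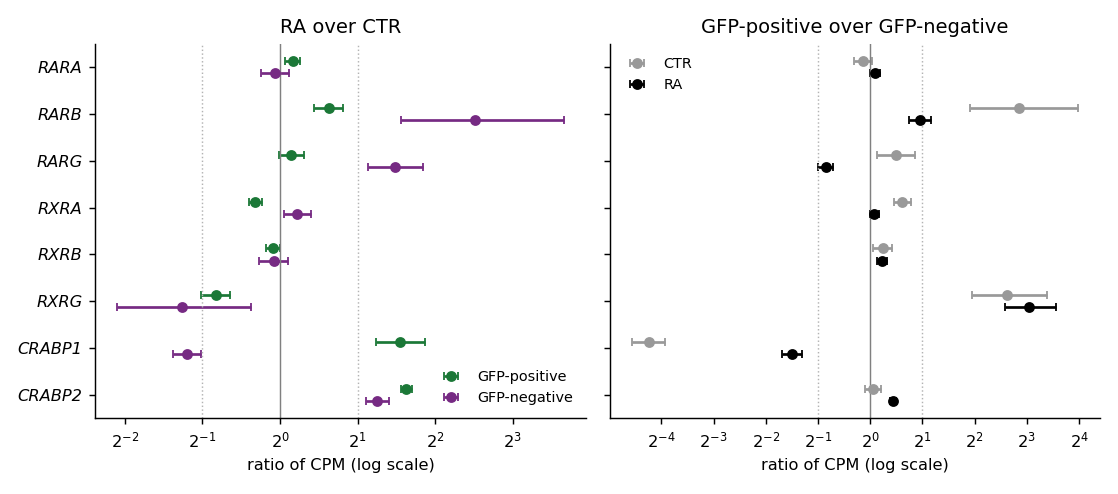
Ratio of CPM (log scale) for each gene, RA over CTR on the left and GFP-positive over GFP-negative on the right; points are single libraries compared, bars the Clopper-Pearson 95% interval of counting, and dotted lines 2-fold. RARA and RXRB sit near 1 throughout, CRABP2 lies above 2-fold with RA in both fractions, and CRABP1 lies above 1 in GFP-positive (2.93) and below it in GFP-negative cells (0.434).

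RARA, the RAR present in most cell types, was measured at 64.8 CPM in RA GFP-positive cells (1733 reads, interval 61.8 to 67.9), 57.8 CPM in CTR GFP-positive cells (1656 reads), 61.0 CPM in RA GFP-negative cells (1565 reads) and 63.7 CPM in CTR GFP-negative cells (299 reads, interval 56.7 to 71.3). The 4 libraries were thus nearly level. Neighbours in the order of levels were not apart by counting error, and only the highest over the lowest library, RA over CTR GFP-positive cells, stood apart at 1.12-fold (1.05 to 1.20). The RA difference was 0.16 in the GFP-positive and -0.06 in the GFP-negative fraction, and neither came near 2-fold. With libraries thinned to equal depth by a single random draw the sign in GFP-negative cells turned, to 0.04.

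RARB, the receptor gene long known as an RA target, was measured at 21.2 CPM in RA GFP-positive cells (567 reads, interval 19.5 to 23.0) and at 13.8 CPM in CTR GFP-positive cells (394 reads, 12.4 to 15.2). In GFP-negative cells it stood at 10.9 CPM with RA (280 reads, 9.67 to 12.3) and at 1.92 CPM without (9 reads, 0.876 to 3.64). Every step of this order was apart by counting error, with CTR GFP-negative cells far below the other 3 libraries, and the highest level was 11.1-fold above the lowest (5.79 to 24.3). RA cells held 5.69 times the RARB level of CTR cells in the GFP-negative fraction (2.96 to 12.6, a log2 difference of 2.03), which ranked 146th of 11606 genes. In the GFP-positive fraction the ratio was 1.54 (1.35 to 1.76, a difference of 0.59), below 2-fold. The RA difference in GFP-positive cells was thus 1.44 smaller on the log2 scale than in GFP-negative cells, where it rests on the 9 reads of the control.

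RARB was also the RAR gene that differed most between fractions. GFP-positive cells held 7.17 times the level of GFP-negative cells in CTR cultures (3.74 to 15.8) and 1.94 times in RA cultures (1.68 to 2.25), so that the gap was past 2-fold only without RA. Between the GFP-negative libraries, the summed gut and liver endoderm markers were 7.18-fold higher with RA (5 of 7 tested markers higher, 1 lower, and 2.35-fold without AFP, singled out for its 464.6 CPM), the summed fibroblast markers 1.91-fold higher (5 of 8 higher) and the summed neural markers 4.66-fold lower (5 of 6 lower, 1 higher, and 2.65-fold without the pigment cell gene PMEL, singled out for its 444.5 CPM in CTR cells). Markers of pluripotent cells were 3.34-fold higher in sum (2 of 3 tested higher) and those of surface epithelium 1.88-fold higher (2 of 4), while endothelial markers were at 0.959 times the CTR sum. The part of these lists in the RARB and RARG levels was not tested.

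RARG, the RAR best known from skin and cartilage, was highest in RA GFP-negative cells at 42.2 CPM (1082 reads, interval 39.7 to 44.8). The other libraries held 23.4 CPM in RA GFP-positive cells (626 reads, 21.6 to 25.3), 21.2 CPM in CTR GFP-positive cells (607 reads, 19.5 to 22.9) and 15.1 CPM in CTR GFP-negative cells (71 reads, 11.8 to 19.1). The GFP-positive libraries did not differ beyond counting error, with a ratio of 1.11 (0.987 to 1.24). In GFP-negative cells the RA level was 2.79 times that of CTR (2.19 to 3.60, a difference of 1.42). The order of the fractions therefore turned with treatment: GFP-positive over GFP-negative was 1.40 (1.09 to 1.82) in CTR cells and 0.555 (0.502 to 0.613) in RA cells, neither past 2-fold on the log2(CPM + 1) scale. With every library thinned by a single random draw to 4371101 reads, the log2 difference in RA cells was -0.37 in place of -0.82. The RA libraries were of similar depth before it (28125727 and 26222787 reads), and the draw was not repeated.

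**Figure D2:**
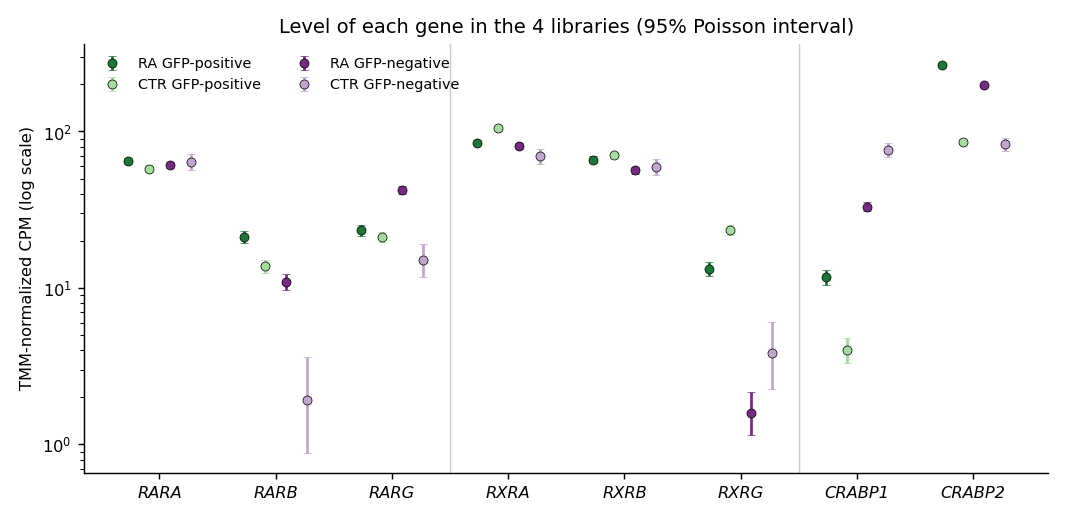
TMM-normalized CPM (log scale) of each gene in the 4 libraries, with exact Poisson 95% intervals; dark and light points are RA and CTR, green and purple GFP-positive and GFP-negative cells. RARB is lowest in CTR GFP-negative cells (1.92 CPM), RXRG is low in both GFP-negative libraries, and CRABP2 is higher in both RA libraries than in both CTR libraries.

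Of the RXRs, RXRA, the form needed for growth of the ventricular wall in the mouse embryo, was highest in CTR GFP-positive cells at 105.9 CPM (3035 reads, 102.2 to 109.8). It stood at 85.0 CPM in RA GFP-positive cells (2273 reads), 80.6 CPM in RA GFP-negative cells (2069 reads) and 69.2 CPM in CTR GFP-negative cells (325 reads, 61.9 to 77.2). Both RA libraries lay between the CTR libraries and were not apart by counting error (1.05, 0.993 to 1.12). RA over CTR was 0.803 in GFP-positive cells (0.760 to 0.848, a difference of -0.31) and 1.17 in GFP-negative cells (1.04 to 1.31, a difference of 0.22), opposite in sign and both well under 2-fold. The widest gap was that between the CTR fractions, where GFP-positive cells held 1.53 times the level of GFP-negative cells (1.36 to 1.72).

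RXRB, the broadly expressed RXR encoded in the major histocompatibility region, varied least after RARA. Its levels were 66.0 CPM in RA GFP-positive cells (1766 reads), 70.5 CPM in CTR GFP-positive cells (2020 reads), 56.3 CPM in RA GFP-negative cells (1445 reads) and 59.6 CPM in CTR GFP-negative cells (280 reads). GFP-positive cells were slightly above GFP-negative cells in both treatments, at 1.17-fold (1.09 to 1.26) with RA and 1.18-fold (1.04 to 1.34) without. RA over CTR was close to 1 in both fractions, at 0.937 (0.878 to 0.999) in the GFP-positive and 0.944 (0.830 to 1.08) in the GFP-negative fraction.

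RXRG, the RXR known from skeletal muscle, heart and parts of the nervous system, separated the fractions. It was measured at 23.5 CPM in CTR GFP-positive cells (672 reads, 21.7 to 25.3) and 13.2 CPM in RA GFP-positive cells (353 reads, 11.9 to 14.7). In GFP-negative cells it stood at 3.83 CPM without RA (18 reads, 2.27 to 6.06) and 1.60 CPM with RA (41 reads, 1.15 to 2.17). Both GFP-positive libraries thus lay above both GFP-negative libraries, and within each fraction the CTR library was the higher. GFP-positive over GFP-negative was 6.12 in CTR cells (3.84 to 10.4, a difference of 2.34) and 8.26 in RA cells (5.97 to 11.7, a difference of 2.45).

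With RA, RXRG was 0.563 times its CTR level in GFP-positive cells (0.493 to 0.641), a difference of -0.78 that did not reach 2-fold but ranked 10867th of 11186 genes from the highest. In GFP-negative cells the ratio was 0.417 (0.234 to 0.771), between 2 levels under the filter of 10 CPM. Between the same libraries the summed cardiomyocyte markers were 1.17-fold lower with RA in GFP-positive cells (1 of 8 lower) and 2.11-fold lower in GFP-negative cells (4 of 8 lower). Their part in the RXRG level was not tested.

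CRABP2, which hands RA to the RARs, was past 2-fold higher with RA in both fractions, and per kb of exon it was the most abundant of the 8 genes in every library but that of CTR GFP-negative cells, where CRABP1 was level with it. It was measured at 265.7 CPM in RA GFP-positive cells (7105 reads, 259.5 to 271.9) and 196.8 CPM in RA GFP-negative cells (5049 reads, 191.4 to 202.3). In CTR cells it stood at 86.0 CPM in the GFP-positive fraction (2463 reads, 82.6 to 89.4) and 82.6 CPM in the GFP-negative fraction (388 reads, 74.6 to 91.3). The RA libraries were thus both high, and the CTR libraries were not apart by counting error (1.04, 0.934 to 1.16). RA over CTR was 3.09 in GFP-positive cells (2.95 to 3.24, a difference of 1.62, rank 225 of 11186) and 2.38 in GFP-negative cells (2.15 to 2.65, a difference of 1.24, rank 389 of 11606).

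Fibroblast markers moved the same way as CRABP2, with a summed level 3.73-fold higher with RA in GFP-positive cells (6 of 7 tested markers higher) and 1.91-fold higher in GFP-negative cells. The sums of surface epithelium markers (2.08-fold and 1.88-fold) and of gut and liver endoderm markers (3.20-fold and 7.18-fold, or 1.46-fold and 2.35-fold without AFP) were also higher with RA in both fractions. In GFP-positive cells 1 of 2 tested markers was higher and 0 lower in each of these lists. The endoderm marker TTR, under the filter there, had 11 reads with RA and 94 without. The GFP-positive level of CRABP2 was 135% of the GFP-negative level in RA cells and 104% in CTR cells, and that of the summed fibroblast markers was 27.2% and 13.9%. Most of that sum lay in COL1A1 and COL3A1 (3879 and 8757 CPM in RA GFP-positive cells). Of its 8 markers, 6 were lower in GFP-positive cells in either treatment. PDGFRA went the other way, with GFP-positive over GFP-negative at 2.13 in RA and 1.51 in CTR cells. The part of these cell types in the CRABP2 level was not tested.

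CRABP1, the relative of CRABP2 found in neural crest and its derivatives, had the widest range of the 8 genes and was the gene whose RA difference was past 2-fold in opposite directions in the 2 fractions. In GFP-positive cells it was measured at 11.7 CPM with RA (314 reads, 10.5 to 13.1) and 4.01 CPM without (115 reads, 3.31 to 4.82). In GFP-negative cells it stood at 33.0 CPM with RA (847 reads, 30.8 to 35.3) and 76.0 CPM without (357 reads, 68.3 to 84.3). CTR cells thus held both the lowest and the highest level, 18.9-fold apart (15.3 to 23.6), and RA cells lay between them. RA over CTR was 2.93 in GFP-positive cells (2.36 to 3.66, a difference of 1.35) and 0.434 in GFP-negative cells (0.383 to 0.493, a difference of -1.18). With a pseudocount of 5 CPM the GFP-positive difference was 0.89, under 2-fold.

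The summed level of neural, neural crest and eye markers was 1.86-fold higher with RA in GFP-positive cells (1 of 2 tested markers higher) and 4.66-fold lower in GFP-negative cells. The higher sum in GFP-positive cells rested on STMN2 alone, a gene of neurons, at 42.5 CPM with RA and 1.26 CPM without, and it was higher with RA in GFP-negative cells too, at 72.7 against 16.8 CPM. Without STMN2, singled out after its values were seen, the sum was 1.17-fold lower with RA in GFP-positive cells (34.3 against 40.03 CPM) and 8.45-fold lower in GFP-negative cells. The GFP-positive level as a share of the GFP-negative level was 5.28% for CRABP1 and 5.62% for the marker sum in CTR cells, and 35.6% and 48.7% in RA cells, where STMN2 held most of the GFP-positive sum and the other markers gave 40.3%. All 10 markers of the list had reads in CTR GFP-positive and RA GFP-negative cells, and FOXD3 was at 0 in the other libraries. The part of neural cells in the CRABP1 level was not tested.

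Levels of different genes were compared per kb of exon within a library. Per kb, RARA was the main RAR throughout, with 66.7% of the summed RAR level in RA GFP-positive cells, 68.6% in CTR GFP-positive cells, 57.8% in RA GFP-negative cells and 81.0% in CTR GFP-negative cells. RARG came next with 22.3%, 23.3%, 37% and 17.8% in the same order, and RARB took 11%, 8.19%, 5.20% and 1.22%. RARB was thus a larger part of the RARs in the GFP-positive than in the GFP-negative fraction of either treatment, and a larger part with RA than without in either fraction. RARA exceeded RARB 66.2-fold per kb of exon in CTR GFP-negative cells (34.4 to 146.1) and 6.09-fold in RA GFP-positive cells (5.53 to 6.70). The long RARB exons (9445 bases) weigh on these values: per kb of coding sequence RARB took 21.1%, 16.2%, 10.4% and 2.65% of the RAR level, RARA exceeded it 29.2-fold (15.2 to 64.6) and 2.69-fold (2.45 to 2.96), and in RA GFP-positive cells RARG and RARB were not apart (1.06, 0.944 to 1.19).

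Among the RXRs, the order of RXRA and RXRB depended on the length used. Per kb of exon RXRB led with 58.7%, 50.9%, 66.5% and 68.1% of the RXR level in the same order of libraries, because the annotated RXRA exons run to 12077 bases against 3897 for RXRB. Per kb of coding sequence RXRA led with 52.8%, 53.7%, 59.8% and 53.6%. RXRG contributed 17.0% and 24.5% in RA and CTR GFP-positive cells against 2.73% and 6.34% in GFP-negative cells, and this gap between the fractions held with coding length (8.88% and 12.9% against 1.28% and 3.22%). Per kb of exon, RXRG was level with RXRA in CTR GFP-positive cells (RXRA over RXRG 1.01, 0.925 to 1.10), whereas in RA GFP-negative cells RXRA exceeded it 11.2-fold (8.26 to 15.7).

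The binding proteins were dominated by CRABP2 in 3 of the 4 libraries. It took 95.3% of the summed CRABP level per kb of exon in RA GFP-positive cells, 84.1% in RA GFP-negative cells and 95% in CTR GFP-positive cells. In CTR GFP-negative cells the 2 genes were level, with CRABP1 over CRABP2 at 1.04 (0.897 to 1.20), and by coding length CRABP2 led there with 58.0%. The summed CRABP level was 257.8 and 216.3 CPM per kb in RA GFP-positive and GFP-negative cells against 83.6 and 155.6 in CTR cells. The summed RAR level ranged only from 16.6 to 22.2 CPM per kb and the RXR level from 21.7 to 35.6, with the highest ratio of RXR to RAR, 2.0, in CTR GFP-positive cells.

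**Figure D3:**
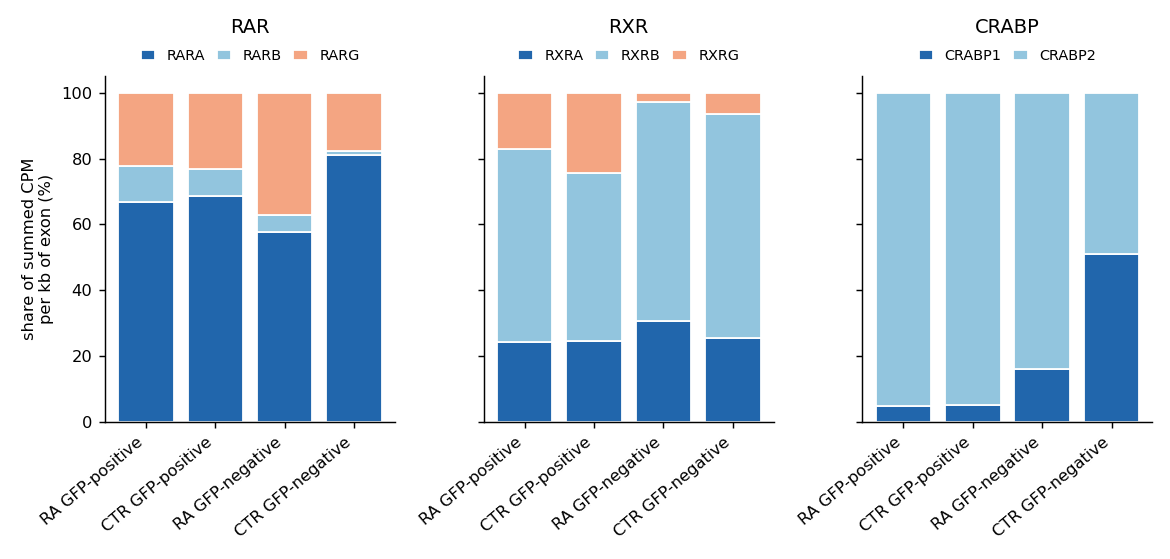
Share of each gene in the summed CPM per kb of exon of its family, for RARs, RXRs and CRABPs, as 1 stacked bar per library. RARB is a sliver in CTR GFP-negative cells (1.22%), RXRG narrows from GFP-positive to GFP-negative cells, and CRABP1 and CRABP2 are level only in CTR GFP-negative cells.

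For each of the 8 genes, the 3 genes with the most similar profile over the 4 libraries were found by the root mean square difference of centred log2(CPM + 1) among 11629 genes. For CRABP2 these included NGFR, a neurotrophin receptor, at a distance of 0.12 and SFRP1, a secreted inhibitor of Wnt signalling, at 0.16, and 14 genes lay within 0.25. SFRP1 stood at 852.1 CPM in RA GFP-positive, 227.8 in CTR GFP-positive, 648.1 in RA GFP-negative and 216.2 in CTR GFP-negative cells, so that it too was high in both RA libraries. For CRABP1 the nearest were GAP43, a protein of growing axons (0.10), ST6GALNAC5 (0.11) and PLCH2 (0.17), with 11 genes within 0.25. For RXRG they were PYGM, the muscle glycogen phosphorylase (0.06), RASGRP2 (0.10) and UNC79 (0.11), with 28 genes within 0.25. Among these genes RARB had few near it, CPT1A of mitochondrial fatty acid import (0.18), UNC5CL (0.22) and ADAM23 (0.23), which were all 3 within 0.25, but with a filter of 1 CPM 3 other genes were nearest. RARG lay nearest PSD4, IKZF2 and RPS28, with 102 genes within 0.25. The profiles that varied least had many genes within that distance: 4489 for RARA (nearest RAB3GAP1, SNU13 and LCA5), 3614 for RXRA (ADAT3, LRRC37B and TOMM40) and 4479 for RXRB (GBF1, DVL3 and CDC23). With 4 libraries, such likeness is a description only.

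Of the genes that supply and break down RA, 3 of 5 tested were higher with RA in GFP-positive cells, beside 4.14% of all genes tested, and 0 were lower. ALDH1A1 and ALDH1A2, 2 of the 3, reached 10 CPM only in the RA library, so the filter itself needed their difference, and over all 12 listed genes the median was 0.42. ALDH1A1, which oxidises retinaldehyde to RA, stood at 22.4 CPM with RA and 2.44 CPM without (9.15-fold, 7.14 to 11.9). ALDH1A2, the main RA-making enzyme of the embryo, stood at 39.3 and 9.46 CPM (4.15-fold, 3.63 to 4.76). In GFP-negative cells 1 of 7 was higher and 1 lower, beside 4.95% and 3.18% of all genes, both at 10 CPM in their higher library only, and the median of all 12 was 0.12. DHRS3, which returns retinaldehyde to retinol, was higher with RA there, at 17.2 against 1.70 CPM (10.1-fold, 5.08 to 23.5, on 8 control reads), and ALDH1A3 was lower, at 4.52 against 30.9 CPM (6.83-fold, 5.31 to 8.80). CYP26A1, shown above for its promoter, had 1, 5, 64 and 8 reads in RA and CTR GFP-positive and RA and CTR GFP-negative cells and was under the filter throughout.

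Of the co-regulators that RARs and RXRs recruit, 0 of 13 were higher or lower with RA in either fraction, where 4.14% of all genes were higher and 1.67% lower in GFP-positive cells and 4.95% and 3.18% in GFP-negative cells, so that the count does not set the list apart. The medians were 0.14 and -0.02. The coactivator NCOA1 at 115.4 against 80.4 CPM and NRIP1, a ligand-dependent corepressor, at 38.3 against 28.8 CPM differed most in GFP-positive cells. In GFP-negative cells these were the coactivator NCOA2 at 41.1 against 28.8 CPM and TBL1XR1, a subunit of the NCOR complex, at 73.0 against 57.7 CPM.

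Among the other receptors that pair with RXR, 1 of 6 tested was higher with RA in GFP-positive cells and 5 of 9 in GFP-negative cells, beside 4.14% and 4.95% of all genes, with 0 lower in either. Of the 5, all but NR4A1 reached 10 CPM only in the RA library, and in GFP-positive cells THRB (6.92 against 1.15 CPM, 6.01-fold, 4.13 to 8.99) and PPARG, the receptor of fat cells (3.74 against 0.768 CPM, 4.87-fold, 3.05 to 8.12), were left out by the filter, so the counts of the fractions are not comparable. Over all 13 listed genes the medians were 0.33 and 1.03. Some calls lay close to the threshold of 1. The GFP-positive call, NR4A1, had a log2 difference of 1.05. Among the GFP-negative calls NR4A1 stood at 1.004 and NR1H3 at 1.03. Library size scaling lowered the median RA difference of all genes, from 0.02 to -0.06 (GFP-positive) and from 0.08 to -0.06 (GFP-negative). The list was not counted again under that scaling, so its counts may depend on it. The thyroid hormone receptor gene THRB stood at 17.0 CPM with RA and 1.49 CPM without in GFP-negative cells (11.4-fold, 5.5 to 28.6, on 7 control reads). NR4A2, an orphan receptor, stood at 13.1 against 2.13 CPM in the same cells (6.13-fold, 3.29 to 12.9). In GFP-positive cells its relative NR4A1 stood at 481.0 against 232.0 CPM (2.07-fold, 2.01 to 2.14), and PPARA, a receptor for fatty acids, at 35.9 against 45.9 CPM, within 2-fold.

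Of 13 RA target genes listed, 1 of 5 tested was higher with RA in GFP-positive cells, HOXB4 at 28.9 against 12.2 CPM (2.37-fold, 2.09 to 2.70), beside 4.14% of all genes, and the median over all 13 was 0.23. STRA6, the receptor that takes up retinol, stood at 77.9 against 91.4 CPM there. In GFP-negative cells 2 of 7 were higher, HOXA3 and DHRS3, beside 4.95% of all genes, but both reached 10 CPM only in the RA library. The median over all 13 was 0.98 there, and 0 were lower in either fraction. HOXA3, which patterns the pharyngeal region, had 919 reads with RA (35.8 CPM) and 0 in the CTR library there, which with 3 reads per library as the floor is at least 56.1-fold higher. In GFP-positive cells HOXA3 had 107 reads with RA and 4 without (28.7-fold, 10.9 to 107.1) and was left out by the filter. HOXB4 was 2.02-fold higher with RA in GFP-negative cells (1.63 to 2.53), a difference of 0.98 just under the call. The counts of the fractions are thus not comparable. Among the lipid-binding relatives of the CRABPs, 1 of 2 tested was higher with RA in GFP-positive cells, beside 4.14% of all genes and again at 10 CPM in the RA library only. This was FABP5, which carries fatty acids and RA, at 50.6 against 7.78 CPM (6.51-fold, 5.64 to 7.53), and FABP3 of heart and skeletal muscle stood at 212.5 against 183.7 CPM. In GFP-negative cells 0 of 3 were higher or lower, beside 4.95% and 3.18% of all genes, with FABP3 at 20.3 against 38.3 CPM and RBP7, a retinol binding relative, at 19.8 against 30.9 CPM. The lists of RA supply and RA targets share DHRS3, STRA6 and CYP26A1, and their counts are descriptions of 2 libraries each.

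**Figure D4:**
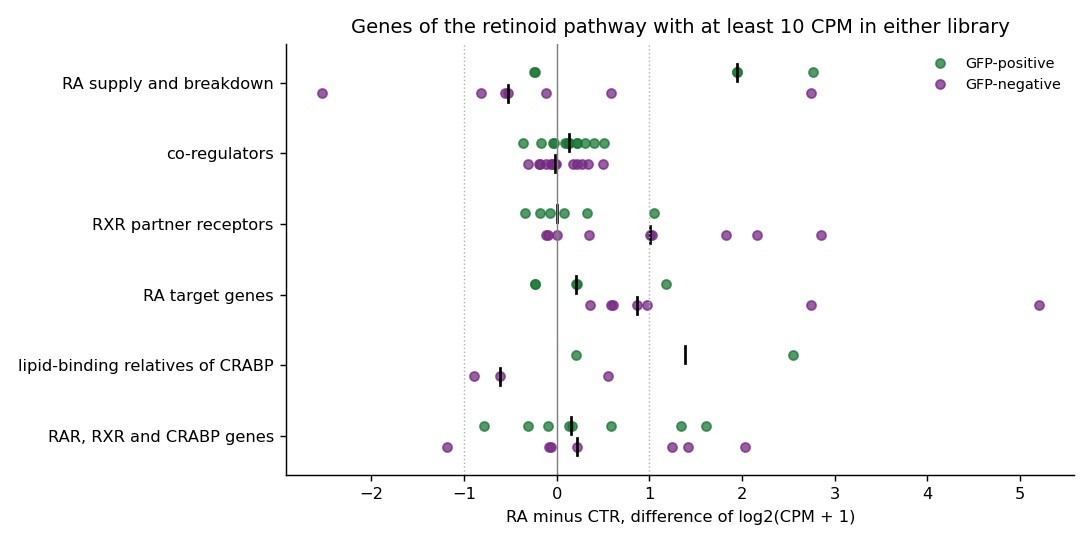
RA minus CTR difference of log2(CPM + 1) for the genes of each list that reached 10 CPM in either library, GFP-positive cells in green and GFP-negative cells in purple; points are genes, black ticks the medians of the points shown and dotted lines 2-fold. Co-regulators stay within 2-fold, RA supply genes reach 2.76 in GFP-positive cells (ALDH1A1), and the point farthest right is HOXA3, which has 0 control reads.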

How the data were processed

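Per the labels, GSNAP, SAMtools 0.1.18 and HTSeq 0.6.1p1 were used on hg19. The authors kept reads with a single best alignment and deposited raw read counts per Ensembl gene, counted without strand and not normalized. The Ensembl release is not given in the sources. Multiply aligned reads were dropped, so genes with near-identical copies, such as RPS28, can be undercounted.

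Of 60234 identifiers, 55538 matched a gene name. Coordinates and exon lengths come from GENCODE lifted to GRCh37. CPM were computed with TMM factors (edgeR 4.0.16, R 4.3.3) of 0.951, 1.000, 0.979 and 1.07 for RA GFP-positive, CTR GFP-positive, RA GFP-negative and CTR GFP-negative cells, where 3 reads correspond to 0.112, 0.105, 0.117 and 0.639 CPM. Differences used a pseudocount of 1 CPM, and the call was 2-fold with at least 10 CPM in either library. With 1 library per condition there was no test, and an additive model of treatment and fraction was not fitted, since it would read the difference between fractions as error. Each comparison shares its libraries with others.

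Some genes of the lists and nearest profiles are not reported here. The 8 genes and all lists were chosen with earlier results of these data known. The genes named by rule are the 8, the 2 genes of each pathway list with the largest RA difference in each fraction, any pathway list gene at 0 reads in 1 library with at least 10 CPM in the other, and the 3 nearest profiles of each of the 8. CYP26A1, named for its promoter, and PPARG, NR1H3 and the marker genes shown were added after their values were seen.

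The alternatives were scaling by library size, DESeq2 1.42.0 size factors, upper quartile, TMM of each pair and library size without mitochondrial genes and the top 10 by reads, a pseudocount of 0.25 or 5 CPM, thinning to equal depth, a filter of 1 CPM, a 1.5-fold call and coding or no gene length. Thinning was a single random draw of each deeper library to 4371101 reads, so values after it also carry the error of that draw. The procedure was tested on simulated data. Plots used matplotlib 3.10.9 (Python 3.11.15).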

Additional observations from a re-analysis of the deposited data

Results flagged for a closer look

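For 2 of the 8 genes the RA differences of the fractions had opposite signs with both counting intervals clear of no change (the signs of RARA also differed, but its interval in GFP-negative cells spanned 1). For CRABP1 the RA difference of log2(CPM + 1) was 1.35 in the GFP-positive and -1.18 in the GFP-negative fraction, 2.53 apart. For RXRA it was -0.31 and 0.22, a difference between the fractions of -0.53, but its GFP-negative ratio of 1.17 became 1.06 (0.944 to 1.20) with library size and 1.10 (0.974 to 1.24) with upper quartile scaling, where the interval spans 1 and CRABP1 is the 1 gene left. The order of the fractions turned with treatment for RARG, whose GFP-positive minus GFP-negative difference was 0.46 in CTR and -0.82 in RA cells, 1.28 apart. It was -0.37 in RA cells after the single draw of thinning. With 1 library per condition, none of these differences between effects was tested.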

How the results depend on the processing

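Of 32 differences (8 genes in 4 comparisons), 27 kept their direction under all 8 alternatives of scaling, pseudocount and depth. The other 5 were small and changed sign under 1 alternative each. CRABP2 between the CTR fractions was 0.06, and -0.05 with library size. With the single draw of thinned libraries, RARA came to 0.04 for RA in GFP-negative cells and to -0.06 between the RA fractions. In the same draw RXRA came to -0.11 between the RA fractions and RXRB to 0.05 for RA in GFP-positive cells. With a pseudocount of 5 CPM, 1 gene (CRABP2) instead of 2 was higher with RA in GFP-positive cells, since CRABP1 came to 0.89. With a 1.5-fold call, 1 gene (RXRG) was lower with RA in GFP-positive cells, and in RA cells 2 genes (RARB and RXRG) were higher and 2 (RARG and CRABP1) lower in the GFP-positive fraction. The other counts of the 8 genes stayed within 1.5 times. Counts of the pathway lists were not repeated under the alternatives. RARB for RA in GFP-negative cells ranged from 1.20 to 2.37, resting on 9 control reads, CRABP1 for RA in GFP-positive cells from 0.89 to 2.07, and RARG between the RA fractions from -0.86 to -0.37. Without AFP, the RA over CTR ratio of the gut and liver endoderm sum fell from 3.20 to 1.46 in GFP-positive and from 7.18 to 2.35 in GFP-negative cells. This alternative was chosen after seeing the data, as was one that left STMN2 out of the neural marker sum, which turned its RA over CTR ratio in GFP-positive cells from 1.86 to 0.856, and one that left out PMEL, which moved it to 3.47, and that in GFP-negative cells from 0.215 to 0.377. Scaling by library size moved the median of all genes for RA in GFP-negative cells from 0.08 to -0.06, and the share of higher among called genes from 60.9% to 46.7% (51.4% with upper quartile, 47.0% without mitochondrial and the most abundant genes). Relative to either median RARB, RARG and CRABP2 stayed higher and CRABP1 lower. Over all genes, RA calls in GFP-negative cells numbered 574 higher and 369 lower as reported, 384 and 208 with a pseudocount of 5 CPM, 1620 and 1418 with a filter of 1 CPM, and 1480 and 1012 at 1.5-fold; in GFP-positive cells 463 and 187 became 889 and 371 with that filter, 911 and 599 at 1.5-fold, and 370 and 112 with that pseudocount. Between the fractions, 1406 and 1567 calls in CTR cells became 2646 and 3191 with the filter and 2838 and 2452 at 1.5-fold, and 1182 and 1474 in RA cells became 1847 and 2546, and 2274 and 2490. The nearest profiles were less stable: after thinning, 0 or 1 of the 3 remained for each of the 8 genes, as did 0 for RARB with a filter of 1 CPM and 0 for RXRG with a pseudocount of 5 CPM. No paired analysis was made, since no test was run and the labels carry no replicate numbers, and with 1 library per condition none could be left out.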
